A study of Mus musculus with 36 samples.

Results

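The genes described here are 36 genes of the presynaptic terminal, chosen by symbol for their known part in synaptic vesicles and transmitter release, out of 50559 genes in the count table. All 36 were found, and all 36 passed the filter on low counts, with a lowest count of 1297 in any library. They were measured in RNA of whole hippocampi of female mice aged 6 months, in 36 libraries of 8 groups. WT (wild-type), APP, Tau and APP/Tau mice were all handled for 3 minutes on each of 3 days, and then stayed in the home cage (naive) or learned a water maze over 5 days (trained). Trained mice had a memory test 24 hours after the last trial, and tissue was taken 2 hours after it. There were 6 WT, 5 APP, 4 Tau and 6 APP/Tau libraries from naive mice and 5, 3, 4 and 3 from trained mice. APP mice carry human APP with the Swedish and Indiana mutations (line J9), Tau mice carry human tau with the P301S mutation (line PS19), and APP/Tau mice carry both, all from heterozygous parents on C57BL/6. Each transgene comes from a single line. Every group, WT included, also carries Pvalb-Cre, which drives the recombinase in parvalbumin neurons, and RiboTag, a tagged ribosomal protein. Only the input before ribosome pull-down was sequenced, so the values cover all hippocampal cells and not parvalbumin neurons alone. The labels do not tie each library to a separate animal, and p-values therefore describe the spread among these libraries.

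Neurotransmitter is stored in synaptic vesicles, which are loaded by transporters, tethered by synapsins and held at the active zone by large scaffold proteins. Vesicles are primed by Unc13 proteins and fuse when SNARE proteins on the vesicle and the plasma membrane zip together, a step that synaptotagmin triggers when calcium enters. Nsf and its SNAP adaptors then take the SNARE complex apart, and dynamin, amphiphysin and synaptojanin retrieve the membrane. Most hippocampal terminals are glutamatergic, and those of dentate granule cells, the mossy fibres, are rich in synaptoporin.

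Total counts ran from 69.2 M to 124.8 M per library (M, mega), with a median of 85.4 M. Levels are counts per M counts (CPM) after TMM scaling, which corrects for library composition. Prnp, whose promoter drives the tau transgene, served as a check of the Tau label. It stood at 728 to 879 CPM in the 19 libraries without Tau and at 1423 to 2142 CPM in 16 with Tau, but at 846 CPM in the library labelled Tau trained replicate 4, which goes against its label. Usp16 stood at 12.9 to 14.9 CPM in all APP carriers and at 24.8 to 30.3 CPM in all others. WT trained replicate 4 had the highest striatal marker score, 2.40 against at most 0.43 elsewhere (mean log2 deviation of 8 genes). Pvalb, which marks the Cre-expressing neurons, was at 2.59 to 3.28 CPM in 5 libraries (WT naive replicate 3, APP/Tau naive replicates 1 and 6, Tau trained replicate 4 and APP/Tau trained replicate 1) and at 10.7 to 20.7 CPM in the other 31. No marker of any list was at 0 in any group. Tau trained replicate 4 and WT trained replicate 4 are called the doubted libraries, and counts of members in comparisons that use them directly are also given without both.

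Levels of different genes were compared as CPM per kb of merged exon length. This length exceeds the longest transcript for many members (Snap25 6.79 against 2.12 kb) but not for others (Cplx2 4.93 kb by both). The order of genes, that of Cplx2 and Snap25 included, therefore depends on the length used. SNARE proteins and their regulators held the highest levels: Cplx2, a complexin that clamps the assembled SNARE complex, stood at 357 CPM per kb and Snap25, a plasma membrane SNARE, at 326. Vamp2, the main vesicle SNARE, followed at 239 CPM per kb, Dnm1, the neuronal dynamin, at 229 and Cplx1 at 228. Among vesicle membrane proteins, Syp (synaptophysin) reached 227 CPM per kb and Slc17a7, the glutamate transporter VGLUT1, 224. The calcium sensors and the GTPase spanned a wide range. Rab3a stood at 182 CPM per kb, Syt1, the fast calcium sensor, at 157, Rph3a (rabphilin) at 65.3 and Doc2a at 8.11. The synapsins Syn1 and Syn2 stood at 154 and 94.4 CPM per kb and Sncb, beta-synuclein, at 149. No active zone gene exceeded the 30.3 CPM per kb of Rims1, and Rims2 stood at 8.51 and Unc13b at 2.34. Some paralogs lay far apart. Sv2c stood at 3.67 CPM per kb against 84.9 for Sv2a and 58.1 for Sv2b, and Vamp1 at 13.5 against 239 for Vamp2. Before division by length Sv2b was above Sv2a (means 487 and 394 CPM) and Syn2 above Syn1 (664 and 509 CPM). The order within these 2 pairs therefore rests on the exon lengths. Over the 36 libraries the highest Sv2c level was below the lowest Sv2a and Sv2b level, and the same held for Vamp1 against Vamp2 and Unc13b against Unc13a.

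**Figure D1:**
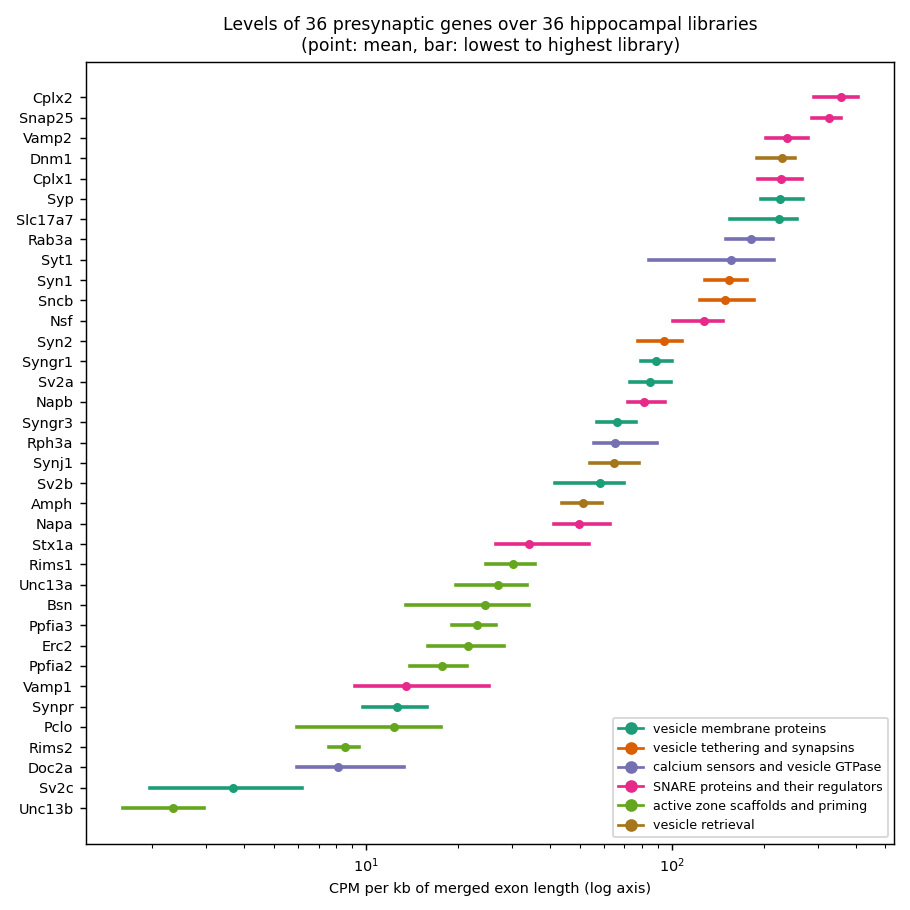
Levels of the 36 presynaptic genes over 36 libraries, in CPM per kb of merged exon length on a log axis; points are means, bars run from the lowest to the highest library, and colours mark roles. Cplx2 (357) and Snap25 (326) lead, Unc13b (2.34) is last, and the bars of Sv2c and Pclo are the widest.

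Most members varied little within a group. The SD of log2 CPM within groups had a median of 0.11 over the 36 genes, beside 0.11 over the 7794 tested genes at or above the level of the lowest member. Napb, the beta-SNAP adaptor that brings Nsf to SNARE complexes, was the steadiest at 0.060, followed by Snap25 and Dnm1, both at 0.079. The widest spreads were those of Sv2c at 0.40, Pclo at 0.35, Bsn at 0.31, Syt1 at 0.30 and Vamp1 at 0.26.

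**Figure D2:**
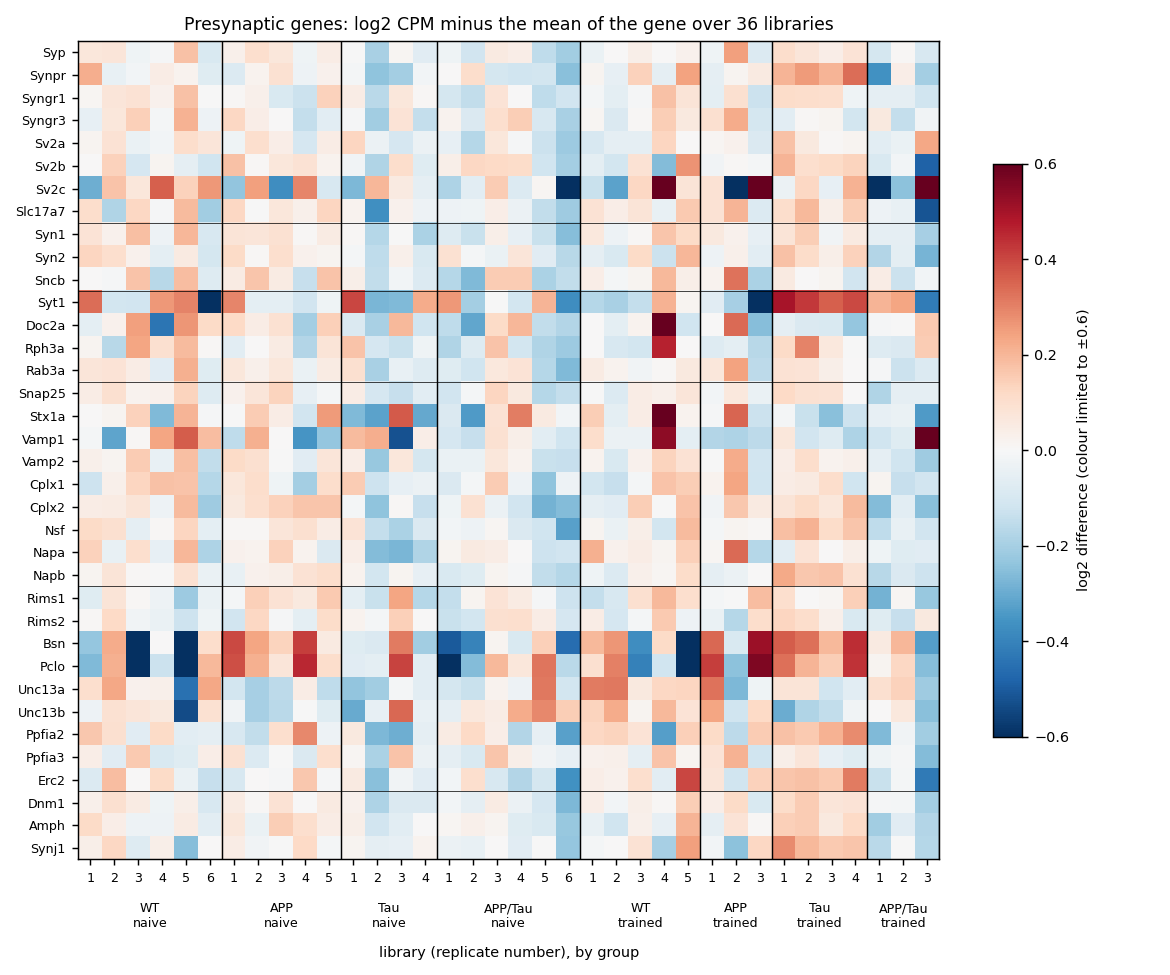
Log2 CPM of each presynaptic gene in each library minus the mean of that gene over all 36 libraries; rows are genes ordered by role, columns are libraries ordered by group with replicate numbers, and colour is limited to 0.6 in either direction. Most genes are above their mean in the 4 Tau trained libraries and below it in APP/Tau naive replicate 6, and Bsn and Pclo change together.

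The comparison of APP/Tau with Tau among trained mice shows how mice with both transgenes differ from mice with mutant tau alone after learning. Napb and Synpr, which encodes the vesicle protein synaptoporin, were lower in APP/Tau mice, and no member was called higher. The test was edgeR's quasi-likelihood test with Benjamini-Hochberg adjustment over 25382 genes and a threshold of 0.05. It called 0.481% of all genes, and 0.331% as lower.

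Napb stood at 671.4, 640.0, 645.9 and 610.9 CPM in trained Tau replicates 1 to 4 and at 510.5, 539.2 and 525.5 CPM in trained APP/Tau replicates 1 to 3. Every Tau library was above every APP/Tau library. The log2 fold change was -0.29, SE 0.052, adjusted p = 0.00667 by edgeR (means 642.1 ± 24.85 and 525.1 ± 14.39 CPM, SD, n = 4 and 3). Napb was at 564, 541, 585, 577 and 619 CPM in trained WT libraries and at 552, 559 and 575 CPM in trained APP libraries, with means between those of the other trained groups. In naive mice it ranged from 557 over a median of 578 to 611 CPM in WT and from 508 over a median of 542 to 579.9 CPM in APP/Tau. Naive APP libraries held 555, 583, 588, 608 and 617 CPM and naive Tau libraries 581, 532, 579 and 553 CPM. Apart from the doubted replicate 4, the trained Tau libraries were above every library of the other 7 groups. Without both doubted libraries the log2 fold change was -0.32 (adjusted p = 0.00433). The call was lost when only the groups compared entered the fit (adjusted p = 0.0557) and without APP/Tau trained replicate 1 (adjusted p = 0.0902).

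Synpr stood at 137, 142, 137 and 149.9 CPM in trained Tau replicates 1 to 4 and at 92.4, 122 and 103 CPM in trained APP/Tau replicates 1 to 3. The groups did not overlap, but the APP/Tau libraries lay far apart. The log2 fold change was -0.42, SE 0.086, adjusted p = 0.0252 by edgeR (means 141.2 ± 6.263 and 105.8 ± 14.99 CPM, SD, n = 4 and 3). The highest trained Tau value came from the doubted replicate 4, and without both doubted libraries Synpr was not called (log2 fold change -0.39, adjusted p = 0.0538). It also lost the call with only the groups compared (adjusted p = 0.0710), without APP/Tau trained replicate 1 (0.171) or 3 (0.109), and without Tau trained replicate 1 (0.0554), 2 (0.0580) or 4 (0.0658). Trained WT libraries held 120.2, 115, 131, 115 and 141 CPM of Synpr and trained APP libraries 114, 120.0 and 123 CPM. Naive WT libraries ranged from 113 over a median of 119 to 138 CPM and naive APP/Tau libraries from 99.6 over a median of 110.2 to 128 CPM. Naive APP libraries held 112, 120.3, 126, 116 and 121 CPM and naive Tau libraries 118, 101, 103 and 117 CPM. The naive groups overlapped one another throughout.

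Dentate granule cell markers moved with Synpr. The summed level of their 7 genes ran from 393 to 512 CPM in trained Tau and from 311 to 395 CPM in trained APP/Tau libraries. All 7 were lower in APP/Tau (median log2 fold change -0.39), 2 of them at an unadjusted p under 0.05 and none called. Over the 36 libraries, for Synpr and the dentate marker score, r was 0.77 and rho 0.75 (permutation p = 1e-05 and 1e-05, adjusted 2.3e-05 and 2.3e-05). This was 1 of 7 relations chosen after the values were seen, and 1e-05 is the smallest p that 100000 permutations give. The r was 0.72 without the 2 libraries farthest from the median score and 0.63 after group means were taken off. The part of granule cells in the Synpr difference was not tested, and in bulk tissue fewer cells of a type and less RNA per cell cannot be told apart. Choroid plexus markers, 10 genes of a tissue that borders the hippocampus, ran from 93.5 to 602 CPM in trained Tau and from 117 to 2437 CPM in trained APP/Tau libraries. With a choroid plexus score in the fit, Napb (adjusted p = 0.0244) and Synpr (0.0285) were still called.

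The regions upstream of Napb and Synpr are shown because these are the members called. Each is a window of 250 bases before an annotated RefSeq start in GRCm38.p6, an older build than the mm39 of the counts. Napb has 1 window in the table (chr2:148732421-148732670, minus strand) and Synpr 2 (chr14:13284530-13284779 and chr14:13453708-13453957, both plus strand). Capitals mark matches on either strand to the CCAAT box (CCAAT) or the GC box (GGGCGG), promoter elements bound by NF-Y and by Sp1 family factors.
Napb: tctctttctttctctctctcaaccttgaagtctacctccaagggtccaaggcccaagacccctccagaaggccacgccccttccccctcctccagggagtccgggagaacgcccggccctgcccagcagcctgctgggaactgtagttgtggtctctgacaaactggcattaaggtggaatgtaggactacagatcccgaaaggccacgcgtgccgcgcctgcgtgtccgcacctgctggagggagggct
Synpr, first start: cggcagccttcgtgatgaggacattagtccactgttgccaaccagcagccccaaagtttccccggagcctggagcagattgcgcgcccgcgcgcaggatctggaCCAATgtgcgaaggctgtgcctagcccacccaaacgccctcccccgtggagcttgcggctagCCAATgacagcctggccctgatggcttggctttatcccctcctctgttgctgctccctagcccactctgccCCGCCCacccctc
Synpr, second start: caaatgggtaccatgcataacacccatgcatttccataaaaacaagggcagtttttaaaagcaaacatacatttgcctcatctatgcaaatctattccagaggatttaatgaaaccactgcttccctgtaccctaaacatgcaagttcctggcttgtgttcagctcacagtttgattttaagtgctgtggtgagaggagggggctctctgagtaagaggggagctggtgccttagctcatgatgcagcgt
The first Synpr window held CCAAT boxes that start 146 and 84 bases before the transcript and a GC box that starts 13 bases before it. The second Synpr window and that of Napb held neither motif, nor the TATA box (TATAAA), the cyclic AMP response element (TGACGTCA) or the NRF1 core (CGCATGCG). Of the 36 genes, 31 had windows in the table, 41 in all. The GC box lay in 22 of the 41 (53.7%) and in 32.7% of all 32851 windows. CCAAT lay in 12 (29.3%, all windows 33.8%), TATAAA in 2 (4.88%, all windows 12.4%) and TGACGTCA in 1 (2.44%, all windows 1.55%).

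**Figure D3:**
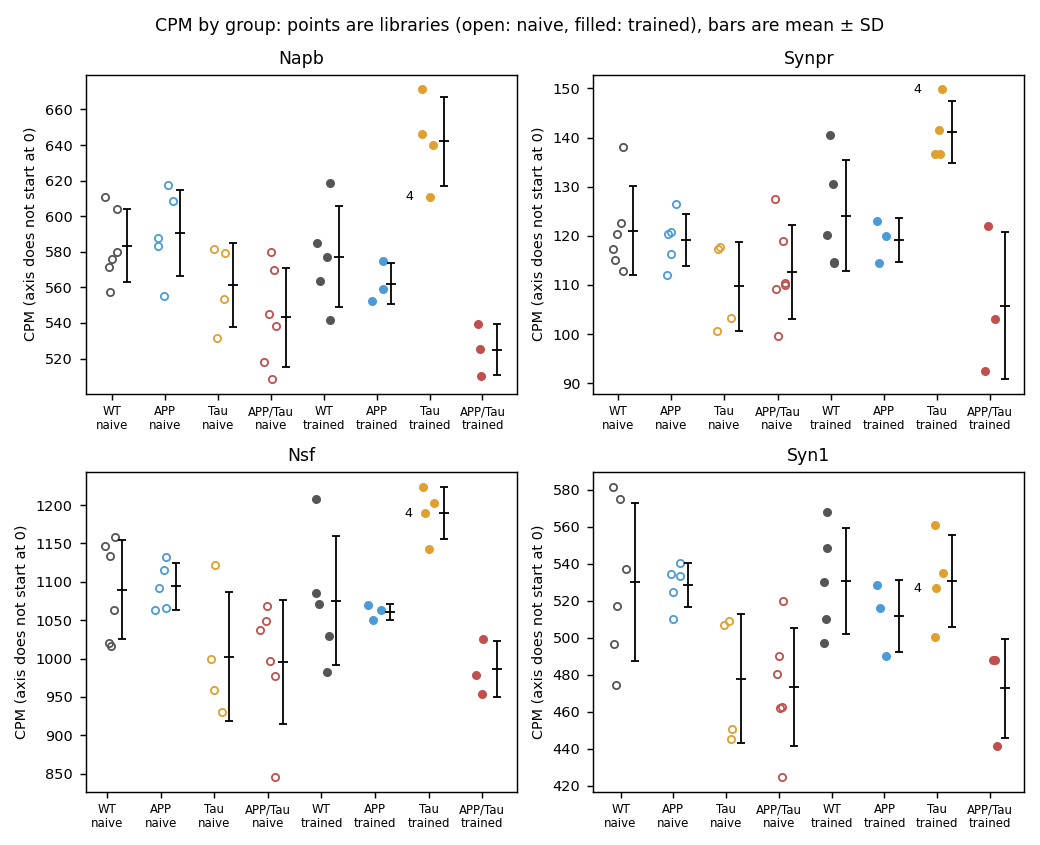
CPM of Napb, Synpr, Nsf and Syn1 in every library by group; open points are naive and filled points trained libraries, bars are mean ± SD, the vertical axes do not start at 0, and 4 marks Tau trained replicate 4. The trained Tau libraries lie above the trained APP/Tau libraries for Napb, Synpr, Nsf and Syn1.

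Most other members had the same direction. In trained APP/Tau against trained Tau mice 30 of 36 were lower, with a median log2 fold change of -0.17, beside 0.016 over all tested genes and -0.036 over those at or above the lowest member level. At an unadjusted p under 0.05, 18 were lower and 1 was higher, 52.8% of the members, beside 15.7% of all tested genes and 20.6% of those at or above the lowest member level. The groups did not overlap for 20 lower members and 1 higher one, beside 16.1% of all tested genes. Without both doubted libraries they did not overlap for 21 lower and 1 higher, beside 20.5%. By role, the median was -0.27 for the 3 retrieval genes, -0.23 for the 9 active zone genes and -0.17 for the 9 SNARE genes. It was -0.17 for the 3 tethering genes, -0.14 for the 8 vesicle membrane genes and -0.12 for the calcium sensors and the GTPase. Some marker lists also stood apart between these groups. Summed pan-neuronal markers were 4616 to 4788 CPM in trained Tau and 4130.2 to 4456 CPM in trained APP/Tau libraries, and CA2 and CA3 pyramidal markers 326 to 371 CPM and 286 to 325 CPM, both lower in APP/Tau without overlap. Endothelial markers were 89.7 to 101 CPM and 109 to 133 CPM, higher in APP/Tau without overlap. Summed CA1, dentate granule, interneuron, astrocyte, microglial, oligodendrocyte, striatal, thalamic and habenular, choroid plexus and blood markers overlapped between the groups. By log2 fold change 6 of 10 pan-neuronal and 5 of 7 CA2 and CA3 markers were lower, and 6 of 6 endothelial markers higher. No marker of these lists was called, and the part of these lists in the presynaptic values was not tested.

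The next members are named after their values were seen. Amph, the amphiphysin that recruits dynamin, stood at 256, 258, 241 and 252 CPM in trained Tau and at 201, 221 and 205 CPM in trained APP/Tau libraries (log2 fold change -0.27, SE 0.066, adjusted p = 0.0542). Nsf, the ATPase that separates SNAREs, stood at 1202, 1224, 1143 and 1189 CPM and at 954, 1026 and 978 CPM (log2 fold change -0.27, SE 0.069, adjusted p = 0.0622). Neither gene overlapped between the groups. Vamp1, a vesicle SNARE known from fast-firing neurons, had the highest log2 fold change (0.40, SE 0.19, adjusted p = 0.297), with 141, 124, 128 and 119 CPM in Tau and 124, 128 and 256 CPM in APP/Tau libraries. A single APP/Tau library, replicate 3, stood above the rest. DESeq2 called 10 (3.52% of all genes it tested) and limma-voom 7 (1.89% of all genes it tested). Without both doubted libraries edgeR called 1 member and 17 passed the unadjusted threshold. The call of Synpr alone was lost without Tau trained replicate 1, 2 or 4. Without APP/Tau trained replicate 1 these counts were 0 and 15 (17 of all 26012 genes called). Without APP/Tau trained replicate 2 they were 5 and 17 (193 of 26034 called), and without replicate 3 1 and 10 (26 of 26011 called). For these left-out libraries the share of all genes at the unadjusted threshold was not computed.

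Of 116 other presynaptic genes tested, 3 were called in this comparison, all lower in APP/Tau. Atp6v1a, a subunit of the proton pump that energises vesicle filling, stood at 624 to 680.2 CPM in trained Tau and 497 to 551 CPM in trained APP/Tau libraries (log2 fold change -0.32, SE 0.066, adjusted p = 0.0274). Stxbp6 (amisyn), a SNARE-binding protein, stood at 115 to 126 against 62.8 to 94.6 CPM (-0.55, SE 0.12, adjusted p = 0.0375). Cacna2d1, an auxiliary calcium channel subunit, stood at 249 to 269 against 173 to 234 CPM (-0.37, SE 0.089, adjusted p = 0.0488). The groups did not overlap for any of the 3. Of the 116, 85 were lower, with a median of -0.10, and 36 lower and 8 higher passed the unadjusted threshold. Over all tested genes 0.481% were called and 15.7% passed the unadjusted threshold. The count called among the 116 was 1 without both doubted libraries and 0 with a choroid plexus score in the fit. It was 6 without APP/Tau trained replicate 2, 1 without Tau trained replicate 3 or 4, and 0 without APP/Tau trained replicate 1 or 3 or Tau trained replicate 1 or 2. Calls over all genes are not given for the fits without both doubted libraries or with the choroid plexus score.

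Training in Tau mice, which shares the trained Tau libraries with the comparison above, raised no member past the threshold by edgeR (0% of all genes were called). DESeq2 called 3 (2.12% of all genes it tested) and limma-voom 6 (3.07% of all genes it tested). At an unadjusted p under 0.05 by edgeR, 15 of 36 were higher after training and 0 lower (41.7%), beside 14.6% of all tested genes and 18.7% of those at or above the lowest member level. The median was 0.14 (all tested genes -0.013, 4 of 36 members below 0). The groups did not overlap for 12 members, all higher after training, beside 10.7% of all tested genes (without both doubted libraries 14 members, beside 14.6%). Synpr had the smallest p (0.36, SE 0.079, adjusted p = 0.0579), then Napb (0.19, SE 0.048, adjusted p = 0.0831) and Nsf (0.25, SE 0.064, adjusted p = 0.0943). Naive Tau libraries held 1122, 959, 930.2 and 999 CPM of Nsf. For Synpr, Napb and Nsf every trained Tau library was above every naive one. Syt1 had the highest log2 fold change (0.37, SE 0.20, adjusted p = 0.405), with 1685, 1054, 1061 and 1487 CPM in naive and 1797, 1713, 1633 and 1679.6 CPM in trained libraries, which overlapped. Unc13b, a Munc13 priming factor, had the lowest (-0.17, SE 0.11, adjusted p = 0.542), which was -0.033 without Tau naive replicate 3.

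Marker levels moved with training in Tau mice too. Dentate granule markers had a median log2 fold change of 0.45 (7 of 7 higher, 291 to 362 CPM summed in naive and 393 to 512 CPM in trained libraries). Thalamic and habenular markers had -1.25 (7 of 7 lower, 84.1 to 259.5 CPM and 82.8 to 94.2 CPM). Choroid plexus markers had -3.06 (10 of 10 lower, 1398 to 3848 CPM and 93.5 to 602 CPM). No marker was called, and their part in the presynaptic values was not tested. The members passing the unadjusted threshold numbered 9 with a choroid plexus score in the fit, 4 with the library number of the labels, 12 without both doubted libraries and 7 without Tau naive replicate 2. The share of all genes at that threshold was not computed for these settings. Trained Tau libraries are numbered 3, 4, 8 and 9 and naive ones 11, 33, 34 and 36. Library number and training therefore cannot be told apart within Tau mice. Without Tau naive replicate 1, 3 members were called, beside 192 of all 25333 genes tested there.

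In the other genotypes training moved no member past the threshold by edgeR. In WT mice 0 members passed an unadjusted p under 0.05, DESeq2 called 0 and limma-voom 0, and by edgeR 0% of all genes were called and 5.85% passed the unadjusted threshold. The median was 0.023 (all tested genes -0.0062, 13 of 36 members below 0). Unc13b (0.16, SE 0.10, adjusted p = 0.845), Unc13a, the main Munc13 of excitatory terminals (0.15, SE 0.10, adjusted p = 0.860), and Stx1a, a plasma membrane SNARE (0.17, SE 0.13, adjusted p = 0.878), had the smallest p, and Syt1 the lowest log2 fold change (-0.069, SE 0.17, adjusted p = 0.971). Stx1a had 0.019 without WT trained replicate 4, and Unc13a and Unc13b had 0.065 and 0.074 without WT naive replicate 5. For training in WT, without both doubted libraries 0 were called and 0 passed the unadjusted threshold. In APP mice 0 members passed it, DESeq2 called 0 and limma-voom 0, and by edgeR 0% of all genes were called and 5.24% passed the unadjusted threshold. The median was -0.0012 (all tested genes 0.015, 19 of 36 members below 0), and Syt1 (-0.35, SE 0.21, adjusted p = 0.925), Unc13b (0.18, SE 0.12, adjusted p = 0.925) and Napb (-0.071, SE 0.049, adjusted p = 0.925) led. Syt1 had -0.15 without APP trained replicate 3. In APP/Tau mice 3 members (1 higher, 2 lower) passed it, DESeq2 called 0 and limma-voom 0, and by edgeR 0% of all genes were called and 3.07% passed the unadjusted threshold. The median was -0.036 (all tested genes 0.0034, 24 of 36 members below 0). These members were Syn2 (-0.15, SE 0.066, adjusted p = 1.00), Sv2b (-0.20, SE 0.091, adjusted p = 1.00) and Vamp1 (0.38, SE 0.17, adjusted p = 1.00). Vamp1 and Sv2b rested on APP/Tau trained replicate 3, without which Vamp1 had -0.052 and Sv2b -0.076.

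**Figure D4:**
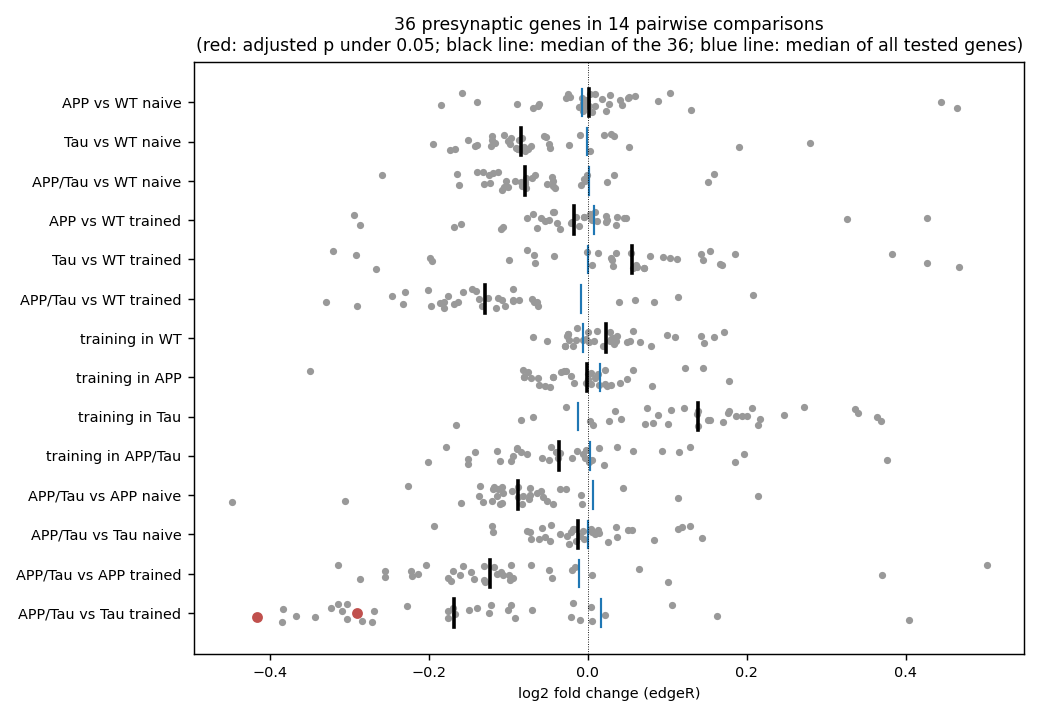
Log2 fold changes of the 36 presynaptic genes in 14 pairwise comparisons; each point is a gene, red points have an adjusted p under 0.05, black lines are the medians of the 36 and blue lines the medians of all tested genes. The medians run from -0.17 (APP/Tau against Tau, trained) to 0.14 (training in Tau), and the only red points, in APP/Tau against Tau among trained mice, are Napb and Synpr.

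The comparisons of each genotype with WT, which share the WT libraries of each training state, show how each transgene differed from WT at rest and after learning. In naive APP mice 2 members (2 higher, 0 lower) passed an unadjusted p under 0.05 and 0 were called by edgeR, DESeq2 called 0 and limma-voom 0, and by edgeR 0.0355% of all genes were called and 3.68% passed the unadjusted threshold. The median was 0.0020 (all tested genes -0.0077, 17 of 36 members below 0). Both members that passed are active zone scaffolds. Bsn (bassoon) ranged from 215 over a median of 353 to 444 CPM in WT and stood at 501, 449, 418, 508 and 396 CPM in APP (log2 fold change 0.44, SE 0.17, adjusted p = 1.00). Pclo (piccolo) ranged from 133 over a median of 234 to 311 CPM in WT and stood at 351, 311, 282, 367 and 288 CPM in APP (0.46, SE 0.20, adjusted p = 1.00). For both genes the groups overlapped. WT naive replicate 5 was the lowest of the 36 libraries for both, and without it Bsn had 0.35 and Pclo 0.35. Bsn and Pclo varied together over the libraries (r 0.95), as described below. Rims1, which ties vesicles to calcium channels, had 0.13, SE 0.070, adjusted p = 1.00, and Vamp1 the lowest log2 fold change, -0.18, SE 0.15, adjusted p = 1.00.

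Naive Tau and APP/Tau mice had values below WT for most members, short of the threshold. In Tau mice 3 members (0 higher, 3 lower) passed an unadjusted p under 0.05 and 0 were called by edgeR, DESeq2 called 0 and limma-voom 0, and by edgeR 0.0276% of all genes were called and 9.31% passed the unadjusted threshold. The median was -0.084 (all tested genes -0.00076, 29 of 36 members below 0). Syn1, the synapsin that clusters vesicles, ranged from 474 over a median of 527 to 582 CPM in WT and stood at 509, 451, 507 and 445 CPM in Tau (log2 fold change -0.15, SE 0.058, adjusted p = 0.461), with overlap. Napa, the alpha-SNAP adaptor, had the lowest log2 fold change (-0.19, SE 0.076, adjusted p = 0.467), Nsf had -0.12, SE 0.058, adjusted p = 0.535, and Pclo had the highest (0.28, SE 0.21, adjusted p = 0.701).

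In naive APP/Tau mice 6 members (0 higher, 6 lower) passed the unadjusted threshold and 0 were called by edgeR, DESeq2 called 0 and limma-voom 0, and by edgeR 0.067% of all genes were called and 7.48% passed the unadjusted threshold. The median was -0.079 (all tested genes 0.0013, 32 of 36 members below 0). Syn1 again had the smallest p (-0.16, SE 0.051, adjusted p = 0.587), ranging from 425 over a median of 471 to 519.8 CPM in APP/Tau and overlapping with WT. Napb (-0.10, SE 0.039, adjusted p = 0.618) and Syngr1, the vesicle protein synaptogyrin (-0.13, SE 0.052, adjusted p = 0.618), followed. Sv2c had the lowest log2 fold change (-0.26, SE 0.22, adjusted p = 0.806) and Pclo the highest (0.16, SE 0.19, adjusted p = 0.860), which was 0.041 without WT naive replicate 5. Tested genes at or above the lowest member level had medians of -0.040 in Tau and -0.028 in APP/Tau against WT. The lowest mean deviations over the 36 genes were those of APP/Tau naive replicate 6 (-0.20) and Tau naive replicate 2 (-0.15 on the log2 scale). Their microglial marker scores were 0.62 and 0.71, and the part of this in the averages was not tested.

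Among trained mice, APP libraries gave no member past either threshold. Of the 36, 0 passed an unadjusted p under 0.05 and 0 were called by edgeR, DESeq2 called 0 and limma-voom 0, and by edgeR 0.0276% of all genes were called and 5.84% passed the unadjusted threshold. The median was -0.017 (all tested genes 0.0084, 22 of 36 members below 0), and Pclo (0.43, SE 0.24, adjusted p = 0.855), Vamp1 (-0.29, SE 0.18, adjusted p = 0.872) and Rph3a (-0.17, SE 0.11, adjusted p = 0.872) led. Without WT trained replicate 4, Rph3a had -0.051 and Vamp1 -0.17, and without both doubted libraries 0 were called and 0 passed the unadjusted threshold. In Tau mice 7 members (5 higher, 2 lower) passed it and 0 were called by edgeR, DESeq2 called 1 (2.77% of all genes it tested) and limma-voom 2 (5.12% of all genes it tested), and by edgeR 0.303% of all genes were called and 15.2% passed the unadjusted threshold. The median was 0.055 (all tested genes 0.000052, 11 of 36 members below 0). Napb had the smallest p (0.15, SE 0.045, adjusted p = 0.0997), followed by Unc13b (-0.29, SE 0.11, adjusted p = 0.185) and Synpr (0.19, SE 0.074, adjusted p = 0.221). Syt1 had the highest log2 fold change, with 1133, 1116, 1155, 1475 and 1291 CPM in WT and 1797, 1713, 1633 and 1679.6 CPM in Tau (0.47, SE 0.19, adjusted p = 0.227). Every trained Tau library was above every trained WT library for Syt1. Stx1a had the lowest (-0.32, SE 0.14, adjusted p = 0.275), and its WT libraries held 99.4, 86.2, 92.5, 143 and 90.8 CPM, of which the highest was the library with the striatal score of 2.40. Without that library Stx1a had -0.17. Without both doubted libraries 0 members were called and 4 passed the unadjusted threshold, and without WT trained replicate 5 edgeR called 1. The share of all genes at the unadjusted threshold was not computed without both.

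Trained APP/Tau mice were below trained WT mice for 31 of 36 members, with a median of -0.13, beside -0.0081 over all tested genes and -0.031 over those at or above the lowest member level. By edgeR 0 were called and 11 members (0 higher, 11 lower) passed an unadjusted p under 0.05 (30.6%), DESeq2 called 0 and limma-voom 0, and by edgeR 0.0552% of all genes were called and 10.2% passed the unadjusted threshold. Erc2, the active zone scaffold CAST, stood at 214, 212, 223, 199.5 and 275 CPM in WT and at 189.5, 207 and 155 CPM in APP/Tau (log2 fold change -0.29, SE 0.10, adjusted p = 0.297). The groups overlapped, and without APP/Tau trained replicate 3 Erc2 had -0.18. Cplx2 had -0.23, SE 0.081, adjusted p = 0.298 and Synpr -0.23, SE 0.082, adjusted p = 0.309. Stx1a had the lowest log2 fold change (-0.33, SE 0.16, adjusted p = 0.474) and Vamp1 the highest (0.21, SE 0.18, adjusted p = 0.769), which was -0.22 without APP/Tau trained replicate 3. Stx1a had -0.18 without WT trained replicate 4, and without both doubted libraries 0 were called and 12 passed the unadjusted threshold. Without APP/Tau trained replicate 3, 4 members passed the unadjusted threshold. The share of all genes at that threshold was not computed for either setting. Oligodendrocyte markers were above WT for 7 of 7 genes (median 0.55, summed 3269 to 4145 CPM in WT and 5220.2 to 5768 CPM in APP/Tau). Microglial markers were above WT for 8 of 8 (median 0.44, summed 306 to 438 CPM and 356 to 746 CPM). The microglial score was 0.85, -0.077 and -0.19 in trained APP/Tau replicates 1 to 3 and -0.37 to 0.15 in trained WT libraries. Only APP/Tau replicate 1 lay above the WT range. None of the oligodendrocyte or microglial markers was called, and their part in the presynaptic values was not tested.

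The other comparisons of APP/Tau with a single transgene use the same APP/Tau libraries. Against naive APP mice 9 members (1 higher, 8 lower) passed an unadjusted p under 0.05 and 0 were called by edgeR, DESeq2 called 0 and limma-voom 0, and by edgeR 0.0276% of all genes were called and 9.72% passed the unadjusted threshold. The median was -0.088 (all tested genes 0.0062, 33 of 36 members below 0). Cplx2 had the smallest p (-0.23, SE 0.066, adjusted p = 0.455), ranging from 1439 over a median of 1663 to 1869 CPM in APP/Tau and standing at 1827, 1881, 1929, 1967 and 1969 CPM in APP libraries. These groups overlapped. Against naive Tau mice 0 members passed it and 0 were called by edgeR, DESeq2 called 0 and limma-voom 0, and by edgeR 0.0394% of all genes were called and 6.6% passed the unadjusted threshold. The median was -0.012 (all tested genes -0.000069, 21 of 36 members below 0), and Napa had the smallest p (0.14, SE 0.076, adjusted p = 0.767). Against trained APP mice 6 members (1 higher, 5 lower) passed it and 0 were called by edgeR, DESeq2 called 0 and limma-voom 0, and by edgeR 0.00394% of all genes were called and 6.93% passed the unadjusted threshold. The median was -0.12 (all tested genes -0.012, 31 of 36 members below 0). Cplx2 again had the smallest p (-0.25, SE 0.089, adjusted p = 0.642), with 1462, 1679 and 1472 CPM in APP/Tau and 1729, 1958 and 1817 CPM in APP libraries. Here the groups did not overlap.

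Whether APP/Tau mice differed from the sum of the single transgenes was tested as non-additivity on the log2 scale. In naive mice 1 member passed an unadjusted p under 0.05 and 0 were called by edgeR, DESeq2 called 0 and limma-voom 0, and by edgeR 0% of all genes were called and 7.13% passed the unadjusted threshold. It was Bsn (-0.64, SE 0.26, adjusted p = 0.634), and the median was -0.011 (all tested genes 0.0039, 21 of 36 members below 0). In trained mice 15 members (1 higher, 14 lower) passed it and 0 were called by edgeR, DESeq2 called 0 and limma-voom 0, and by edgeR 0.0118% of all genes were called and 9.39% passed the unadjusted threshold. The median was -0.16 (all tested genes -0.00023, 29 of 36 members below 0), and Napb had the smallest p (-0.25, SE 0.071, adjusted p = 0.422). For the trained groups, without both doubted libraries 0 were called and 7 passed the unadjusted threshold. The share of all genes at that threshold was not computed without them.

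Whether training acted differently from WT in each genotype was tested as an interaction. Without both doubted libraries the share of all genes at an unadjusted p under 0.05 was not computed. For Tau 8 members (7 higher, 1 lower) passed an unadjusted p under 0.05 and 0 were called by edgeR, DESeq2 called 0 and limma-voom 0, and by edgeR 0% of all genes were called and 9.04% passed the unadjusted threshold. The median was 0.14 (all tested genes -0.0081, 7 of 36 members below 0), and Napb had the smallest p (0.21, SE 0.063, adjusted p = 0.411); without both doubted libraries 0 were called and 6 passed the unadjusted threshold. For APP 0 members passed it and 0 were called by edgeR, DESeq2 called 0 and limma-voom 0, and by edgeR 0% of all genes were called and 2.67% passed the unadjusted threshold. The median was -0.041 (all tested genes 0.019, 26 of 36 members below 0), and Synj1, the synaptojanin that sheds clathrin coats, had the smallest p (-0.11, SE 0.10, adjusted p = 1.00, and -0.019 without APP trained replicate 2). For APP, without both doubted libraries 0 were called and 0 passed the unadjusted threshold. For APP/Tau 3 members (1 higher, 2 lower) passed it and 0 were called by edgeR, DESeq2 called 0 and limma-voom 0, and by edgeR 0% of all genes were called and 4.14% passed the unadjusted threshold. The median was -0.040 (all tested genes 0.0020, 23 of 36 members below 0), and Unc13b had the smallest p (-0.34, SE 0.15, adjusted p = 0.981); without both doubted libraries 0 were called and 4 passed the unadjusted threshold. A difference from WT in the effect of training was therefore not shown for any presynaptic gene. Effects of training were not compared among APP, Tau and APP/Tau mice.

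Averaged over groups, no member passed the threshold by edgeR. In APP carriers 7 members (0 higher, 7 lower) passed an unadjusted p under 0.05, DESeq2 called 1 (0.372% of all genes it tested) and limma-voom 0, and by edgeR 0.0985% of all genes were called and 9.95% passed the unadjusted threshold. The median was -0.041 (all tested genes 0.0052, 28 of 36 members below 0), and Napb had the smallest p (-0.090, SE 0.023, adjusted p = 0.173); without both doubted libraries 0 were called and 9 passed the unadjusted threshold. In Tau carriers 10 members (1 higher, 9 lower) passed it, DESeq2 called 2 (2.47% of all genes it tested) and limma-voom 0, and by edgeR 0.835% of all genes were called and 13.2% passed the unadjusted threshold. The median was -0.056 (all tested genes -0.0075, 30 of 36 members below 0), and Cplx2 had the smallest p (-0.13, SE 0.038, adjusted p = 0.0846). For Tau carriers, without both doubted libraries 0 were called and 8 passed the unadjusted threshold. As for APP carriers, the share of all genes passing it was not computed there. Leaving out APP/Tau trained replicate 2 or WT naive replicate 6 gave 1 call each. In the same comparison the oligodendrocyte markers Mbp, Mag, Cnp, Mog and Mobp, genes of myelin, were called higher, with log2 fold changes of 0.34 to 0.39, and their part in the presynaptic values was not tested. For training over all genotypes 0 members passed it, DESeq2 called 0 and limma-voom 0, and by edgeR 0% of all genes were called and 7.95% passed the unadjusted threshold. The median was 0.028 (all tested genes 0.0022, 6 of 36 members below 0), and Synpr had the smallest p (0.077, SE 0.038, adjusted p = 0.628); without both doubted libraries 0 were called and 0 passed the unadjusted threshold.

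Some members varied widely between libraries of the same group. Bsn and Pclo, related scaffolds with the longest transcripts of the 36 genes, went up and down together. Bsn ran from 215 CPM in WT naive replicate 5 to 544 CPM in APP trained replicate 3, and Pclo from 133 to 395 CPM in the same libraries. Over the 36 libraries r was 0.95 and rho 0.95 (permutation p = 1e-05 and 1e-05, adjusted 2.3e-05 and 2.3e-05). The r was 0.93 without the 2 libraries farthest from the median of Pclo and 0.95 after group means were taken off. A long-transcript index, the mean log2 level of 686 genes with transcripts over 8 kb minus that of 1259 genes with transcripts of 1 to 2 kb, moved with both less closely. For Bsn r was 0.39 and rho 0.31 (permutation p = 0.019 and 0.069, adjusted 0.022 and 0.08). For Pclo r was 0.47 and rho 0.38 (permutation p = 0.0051 and 0.024, adjusted 0.0071 and 0.033). Without WT naive replicate 5 and APP trained replicate 2 the r values were 0.21 and 0.25, so these relations rest on those libraries. The priming factors Unc13a and Unc13b also varied together, and r was 0.69 and rho 0.66 (permutation p = 1e-05 and 1e-05, adjusted 2.3e-05 and 2.3e-05). The r was 0.58 without APP trained replicate 1 and WT naive replicate 5 and 0.75 after group means were taken off.

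The upstream windows of Bsn and Pclo are shown because these genes vary together, Bsn at chr9:108190384-108190633 (minus strand) and Pclo at chr5:14514668-14514917 (plus strand) of GRCm38.p6. Capitals mark the NRF1 core (CGCATGCG, a motif added after the sequences were read) in Bsn and the GC box (GGGCGG) in Pclo.
Bsn: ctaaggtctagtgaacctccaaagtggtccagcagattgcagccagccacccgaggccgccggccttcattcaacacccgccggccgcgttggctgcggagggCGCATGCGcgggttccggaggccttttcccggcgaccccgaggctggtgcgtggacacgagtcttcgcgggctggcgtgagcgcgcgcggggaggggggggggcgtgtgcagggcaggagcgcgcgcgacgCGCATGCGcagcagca
Pclo: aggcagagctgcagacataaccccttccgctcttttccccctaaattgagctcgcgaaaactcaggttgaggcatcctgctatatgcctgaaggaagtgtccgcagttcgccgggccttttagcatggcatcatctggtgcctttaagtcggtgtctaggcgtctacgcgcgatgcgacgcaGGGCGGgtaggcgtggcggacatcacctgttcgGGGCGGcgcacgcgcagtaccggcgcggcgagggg
The Bsn window held the NRF1 core starting 147 and 16 bases before the transcript, and the Pclo window held the GC box starting 68 and 35 bases before it. No motif searched was in both. The NRF1 core lay in 2 of the 41 member windows (4.88%), that of Bsn included, and in 1.55% of all windows. As the motif was chosen after the sequences were read, these shares cannot show an enrichment.

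**Figure D5:**
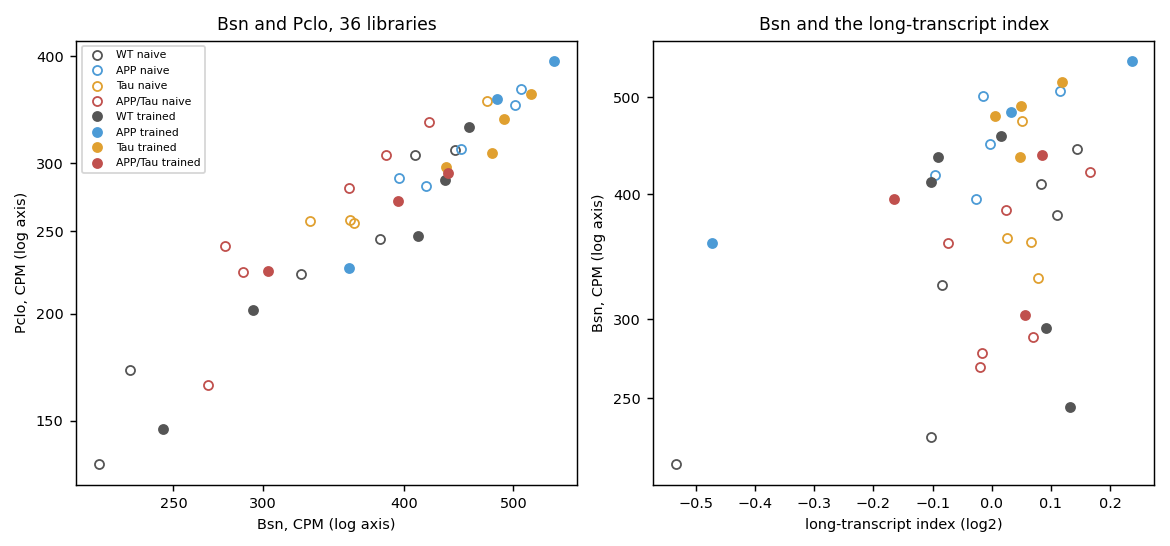
Pclo against Bsn in CPM, both on log axes, and Bsn in CPM on a log axis against the long-transcript index in log2 units; each point is 1 of 36 libraries, coloured by genotype, open for naive and filled for trained. Bsn and Pclo lie along a line (r 0.95), while Bsn and the index scatter (r 0.39).

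Vamp1 and Sv2c varied beside marker scores of neighbouring regions. Vamp1 was highest, at 256 CPM, in APP/Tau trained replicate 3, whose thalamic and habenular score was 1.22. The next level, 196 CPM in WT trained replicate 4, came with a score of 0.38. APP naive replicate 2, with the highest score of 1.63, held 156 CPM. Over the 36 libraries, for Vamp1 and that score, r was 0.58 and rho 0.49 (permutation p = 8e-05 and 0.0024, adjusted 0.00014 and 0.0042). The r was 0.56 without the 2 libraries farthest from the median score. Sv2c, an SV2 form known from the basal ganglia, ran from 18.998 CPM in APP trained replicate 2 to 60.0 CPM in WT trained replicate 4, the library with the striatal score of 2.40. Sv2c was as high, at 60.0 CPM, in APP/Tau trained replicate 3 and stood at 55.6 CPM in APP trained replicate 3, whose striatal scores were 0.24 and 0.092. For Sv2c and the striatal score r was 0.39 and rho 0.26 (permutation p = 0.031 and 0.13, adjusted 0.031 and 0.13). The r was 0.14 without Tau naive replicate 3 and WT trained replicate 4, so the relation rests on those libraries. The part of neighbouring tissue in the levels of Vamp1 and Sv2c was not tested.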

How the data were processed

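Gene counts of 36 hippocampal RNA-seq libraries were taken as deposited by the authors, as raw counts per gene. The submitters' processing notes name Trimmomatic 0.39, a read trimmer, and the mm39 build. Aligner, annotation and counting settings were not given in the sources used here, so reads shared by paralogs may be assigned in ways that cannot be checked. Per the labels' protocols, libraries were made from 100 ng of poly(A) RNA and read as 150 bp pairs. In R 4.3.3, edgeR 4.0.16 was used with TMM scaling, a filter on low counts by group (minimum count 10, minimum total 15), and a quasi-likelihood test on 1 model of all 8 groups without a replicate block, with p-values adjusted by the Benjamini-Hochberg method over 25382 genes. DESeq2 1.42.0 and limma 3.58.1 (voom with quality weights) were alternatives. The members and lists were chosen with earlier results of these data known. In each of the 10 genotype and training comparisons the text names called members, the 3 with the smallest p and those with the highest and lowest log2 fold change, and elsewhere the called members and the member with the smallest p. Same-numbered samples deviated together in every pair (correlations over 0.1) for training in APP/Tau alone, from 0.16 to 0.23. No pair of libraries within a group was identical (68 pairs). The script was tested on simulated data.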

Additional observations from a re-analysis of the deposited data

Results flagged for a closer look

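Of 222 sets of values (each of the 36 presynaptic genes and their mean score in each of 6 groups with 4 to 6 libraries), 17, all of single genes, held a library that stood far from the others by Dixon's test, and chance alone gives about 1 in 20. WT trained replicate 4, the library with the high striatal markers, accounted for 6. There it was the highest for Sncb at 365 CPM (others 316 to 327), Doc2a at 37.3 CPM (20.7 to 22.8), Rph3a at 414 CPM (279 to 302), Stx1a at 143 CPM (86.2 to 99.4) and Vamp1 at 196 CPM (130 to 145), and the lowest for Ppfia2, a liprin, at 152 CPM (202 to 212).

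Tau trained replicate 4, whose Prnp goes against its label, was the lowest for Syngr1 at 419 CPM (457 to 460) and the highest for Erc2 at 259 CPM (232 to 235). WT naive replicate 5 was the lowest for both Unc13a at 248 CPM (345 to 398) and Unc13b at 36.4 CPM (51.7 to 56.3). Tau naive replicate 3 was the highest for Stx1a at 116 CPM (71.8 to 74.6) and for Pclo at 355 CPM (256 to 257), and Tau naive replicate 2 the lowest for Slc17a7 at 929 CPM (1173 to 1221).

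In naive APP mice replicate 1 was the highest for Syt1 at 1561 CPM (1178 to 1253). In naive APP/Tau mice replicate 3 was the highest for Rph3a at 339.6 CPM (259 to 286), replicate 5 the highest for Unc13a at 422 CPM (309 to 343), and replicate 6 the lowest for Synj1 at 442 CPM (496 to 520).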

How the results depend on the processing

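Counts of called members moved most with the tool. Calls over all genes moved too. In trained mice, APP/Tau against Tau had 122 by edgeR, 634 by DESeq2, 480 by limma-voom and 125 with the replicate block. It had 60 with library number, 41 without the count filter and 17 to 193 leaving out single libraries. Calls over all genes are not given here for the other settings. A change in the counts below is therefore not a result about the presynaptic genes alone. For APP/Tau against Tau among trained mice, 2 members were called by edgeR, 10 by DESeq2, 7 by limma-voom, 8 with a long-transcript index in the fit, 4 with the replicate block, 1 without both doubted libraries, 0 with only the groups compared, and 0 to 5 when single libraries were left out. Of the other presynaptic genes 3 were called, and 12 by DESeq2, 9 by limma-voom, 7 with the index, 1 each without the count filter, with library number, with only the groups compared and without both doubted libraries, 0 with a choroid plexus score, and 0 to 6 leaving out single libraries. For Tau against WT among trained mice, members called were 1 by DESeq2, 2 by limma-voom, 1 with only the groups compared and 0 to 1 leaving out libraries, and other presynaptic genes 2, 10, 1 with the choroid score, 2 with the index and 0 to 3. For training in Tau, members called were 3 by DESeq2, 6 by limma-voom, 1 with only the groups compared, 1 with the index and 0 to 3 leaving out libraries, and other presynaptic genes 6, 12, 2, 1 and 0 to 4. For APP carriers DESeq2 called 1 member, and other presynaptic genes ranged from 0 to 1 leaving out libraries. For Tau carriers DESeq2 called 2 members and 1 other presynaptic gene, with 0 to 1 and 0 to 2 leaving out libraries. For APP/Tau against WT among trained mice DESeq2 called 1 other presynaptic gene, with 0 to 1 leaving out libraries. The cause of these differences was not tested. The median for training in APP ranged from -0.066 to -0.0048 leaving out libraries.

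Among named members, direction turned only when a single library was left out, for Syt1 with training in WT (-0.20 to 0.0031), Vamp1 in APP/Tau against WT among trained mice (-0.22 to 0.40) and Vamp1 with training in APP/Tau (-0.052 to 0.56). Medians of the 36 that lay near 0 also changed sign. The replicate block gave -0.021 for APP against WT naive, -0.018 for training in WT, 0.011 for APP/Tau against Tau naive and 0.036 for non-additivity in naive mice, and limma-voom gave 0.0050 for APP/Tau against Tau naive. Leaving out single libraries, these medians ran from -0.016 to 0.024, -0.010 to 0.038, -0.046 to 0.019 and -0.055 to 0.017, and that for APP against WT trained from -0.048 to 0.0062. Uncalled values also moved by over 1.5 times without 1 library. Pclo had 0.15 in Tau against WT naive without Tau naive replicate 3 and 0.27 in APP against WT trained without APP trained replicate 3. Unc13b had 0.096 with training in APP without APP trained replicate 1, and Sv2c -0.16 in APP/Tau against WT naive without APP/Tau naive replicate 6. Synpr had -0.13 in APP/Tau against WT trained without APP/Tau trained replicate 1 and 0.045 with training over genotypes without APP/Tau trained replicate 2, and Napa 0.22 in APP/Tau against Tau naive without Tau naive replicate 1. With the replicate block Napb (-0.29, adjusted p = 0.0107) and Synpr (-0.42, adjusted p = 0.0358) were still called in APP/Tau against Tau among trained mice. Outside training in APP/Tau the same-numbered pairs were mixed. For APP against WT among trained mice their correlations ran from -0.32 to 0.53, with 2 of 3 over 0.1. The labels do not say whether equal numbers mark a shared batch. A long-transcript index, the older quasi-likelihood dispersion and all values without both doubted libraries were chosen after the data were seen. With 3 or 4 libraries a group and an unknown counting method, small differences and paralog levels are limited in precision.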
